A study of Mus musculus with 6 samples.

Results

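Snora64, Snora78 and Snora33 are box H/ACA small nucleolar RNAs (snoRNAs) whose genes lie within the mouse ribosomal protein genes Rps2 and Rps12. The rule for choosing them used position and no values. It took the snoRNAs matched to a symbol that lie within the annotated spans of these small-subunit protein genes. The choice was made with earlier results of these data known. All 3 snoRNAs were measured. They are 3 of 72 snoRNA probes, and 67 of the probes carried values while 5 were blank throughout. Another 34 measured probes had no symbol and could not be placed in a host gene. The 6 samples were total RNA of the C2C12 line, mouse myoblasts that can be made to fuse into myotubes. Of these, 3 were control myoblasts and 3 came from the same line differentiated for 7 days. All were read by NanoString nCounter with custom probes, an assay in which barcoded probes are counted directly and nothing is amplified. No label ties the replicates to separate cultures, and the p-values therefore describe the spread among these samples, which may be technical. The panel held no messenger RNA under a symbol, and 0 of 12 markers of myotubes, myoblasts and fibroblasts that were looked for were found. The labelled cell states could therefore not be checked, and the levels of Rps2, Rps12 and Snhg9 themselves were not measured.

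An H/ACA snoRNA folds into hairpins that pair with a target RNA and place a chosen uridine in the active site of dyskerin, the pseudouridine synthase of the particle. In mammals most are cut out of the introns of other genes, so the transcription and splicing of a host gene set how much snoRNA can be made. Ribosomal protein genes are common hosts. Their messenger RNAs usually begin with a stretch of pyrimidines, the terminal oligopyrimidine tract, which ties their translation to growth signals, and many non-coding snoRNA host genes begin in the same way. Rps2 and Rps12 encode proteins of the small ribosomal subunit. The human counterparts of Snora64 (U64) and Snora33 (ACA33) are guides for the RNA of the large ribosomal subunit. Snora78 is also listed under the name ACA64, and lies within Snhg9, a long non-coding host gene, as well as within the annotated span of Rps2.

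Snora64 and Snora78 are neighbours, but the RefSeq annotation of GRCm38.p6 places their hosts' starts on opposite strands. In the promoter table Rps2 starts on the plus strand and Snhg9 on the minus strand, so that they run away from each other from starts 98 bases apart. Snora64 lies wholly after the Rps2 start. Snora78 lies wholly after the Snhg9 start and before the Rps2 start, and it falls within Rps2 only because the annotated gene span of Rps2 reaches back over the whole of Snhg9. The promoter windows of both host genes, which hold 250 bases before the start and 50 from the start onward, share 197 bases, read on opposite strands. They are shown because the neighbours Snora64 and Snora78 are compared below. The Rps2 window is chr17:24719813-24720112 on the plus strand and the Snhg9 window chr17:24719916-24720215 on the minus strand, both from RefSeq with build GRCm38.p6 and printed 5′ to 3′. Capitals mark the shared bases, and the first 20 bases of the Rps2 window lie inside Snora78.
Rps2: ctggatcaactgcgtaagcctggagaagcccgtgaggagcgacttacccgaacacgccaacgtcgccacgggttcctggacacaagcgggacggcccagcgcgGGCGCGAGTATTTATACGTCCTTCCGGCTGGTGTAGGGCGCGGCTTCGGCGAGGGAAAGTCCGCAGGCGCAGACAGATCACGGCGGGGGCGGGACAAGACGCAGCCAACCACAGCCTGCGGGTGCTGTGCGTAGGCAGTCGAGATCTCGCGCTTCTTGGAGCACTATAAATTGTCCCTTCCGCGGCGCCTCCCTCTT
Snhg9: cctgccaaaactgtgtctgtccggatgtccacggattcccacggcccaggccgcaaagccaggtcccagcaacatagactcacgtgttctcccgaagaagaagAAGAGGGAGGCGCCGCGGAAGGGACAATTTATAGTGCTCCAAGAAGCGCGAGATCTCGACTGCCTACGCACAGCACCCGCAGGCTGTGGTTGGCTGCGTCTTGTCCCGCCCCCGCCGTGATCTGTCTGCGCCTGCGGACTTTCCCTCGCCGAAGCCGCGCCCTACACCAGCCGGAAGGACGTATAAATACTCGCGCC

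Snora33 has Rps12 as its only host in that annotation and lies after its start. The Rps12 window is chr10:23787160-23787459 on the minus strand, from the same source. It is shown for comparison, with capitals on the longest run of C or T that touches the 10 bases on either side of the start.
Rps12: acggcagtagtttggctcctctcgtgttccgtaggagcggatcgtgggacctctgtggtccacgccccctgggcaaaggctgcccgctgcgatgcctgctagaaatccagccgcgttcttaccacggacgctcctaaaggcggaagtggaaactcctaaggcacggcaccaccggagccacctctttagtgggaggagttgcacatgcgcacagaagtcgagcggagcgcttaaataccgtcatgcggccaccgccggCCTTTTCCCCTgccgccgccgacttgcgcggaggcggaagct
That run is 11 bases long. A run of at least 10 was present in 6.97% of the 32851 promoter windows of this length, counted on the strand of each gene. The longest such run had 6 bases in the Rps2 window and 9 in the Snhg9 window, each placed by the start that the table uses. The Rps2 window also ends within a run of C or T that lies too far after this start to be counted. Read on the opposite strand, the bases printed for Snhg9 continue that run beyond the window. These lengths therefore do not show whether the Rps2 messenger RNA begins with a terminal oligopyrimidine tract. The deposited probes carry no sequence, so the snoRNAs themselves are not printed.

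The question put to these snoRNAs was whether their levels differed between myoblasts and myotubes. None of the 3 passed the test, against 55.2% of all measured snoRNAs (limma, Benjamini-Hochberg adjusted over the 67). None had an unadjusted p under 0.05 either, the lowest being 0.053 for Snora33. Of the whole panel 35.8% were called higher in myotubes and 19.4% lower. The level of Snora33 was lower in all 3 myotube samples than in any myoblast sample. Snora64 varied more within each state than between the states, and the change of Snora78 was the smallest of the 3.

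**Figure D1:**
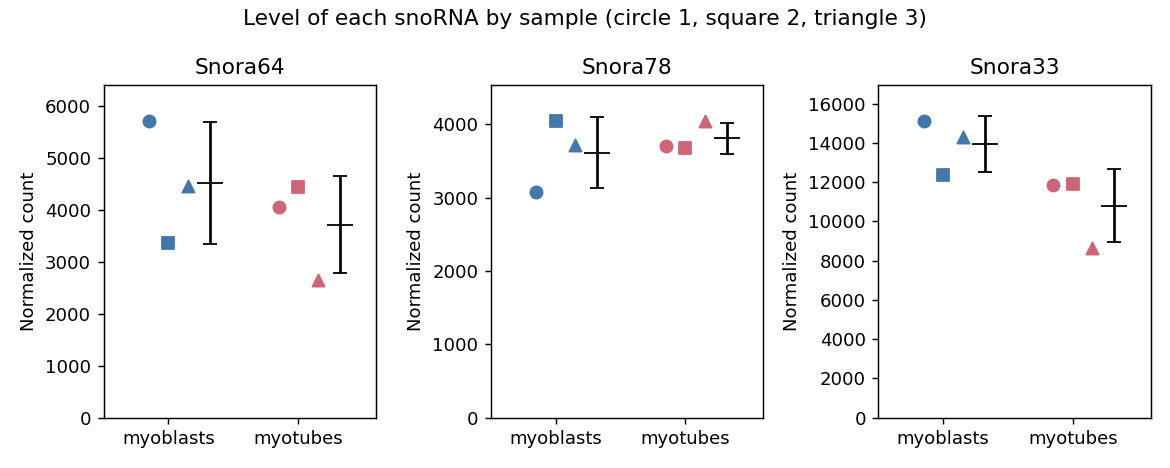
Normalized count (vertical axes, starting at 0) of Snora64, Snora78 and Snora33 in the 3 myoblast and 3 myotube samples, with circle, square and triangle for samples 1, 2 and 3 and the mean ± SD in black. The states are separate for Snora33, between 12387 and 11887, and overlap for Snora64 and Snora78.

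Snora64, whose human counterpart guides modification of large-subunit ribosomal RNA, stood at 5728, 3371 and 4468 normalized counts in the myoblasts (samples 1, 2 and 3). In the myotubes it stood at 4061, 4439 and 2663, in the same order. Myoblast sample 1 was the highest and myotube sample 3 the lowest, and the remaining samples of both states were interleaved. The mean was 4522 ± 1180 over the myoblasts and 3721 ± 936 over the myotubes (SD, n = 3 each). The log2 change was -0.28 with a 95% interval from -0.88 to 0.32 (limma, adjusted p = 0.37), so a fall of more than 1.84-fold or a rise of more than 1.25-fold lay outside the interval. The SD of log2 values within a state was 0.39 for Snora64, the 8th highest of the 67 snoRNAs. Counting error is small beside this, since the counts implied by the scaled values were between 2490 and 4383, a relative error of 1.51% to 2.00%.

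Snora78, the snoRNA of Snhg9, stood at 3084, 4041 and 3726 normalized counts in myoblasts 1, 2 and 3, and at 3710, 3672 and 4053 in myotubes 1, 2 and 3. The myotube values lay inside the range of the myoblast values apart from myotube sample 3, and the lowest and the next to highest value of the 6 both belonged to myoblasts. The mean was 3617 ± 487 over the myoblasts and 3812 ± 210 over the myotubes (SD, n = 3 each). The log2 change was 0.08 with a 95% interval from -0.24 to 0.40 (limma, adjusted p = 0.60), which spans 0.849-fold to 1.32-fold. The sign was not fixed by the data. It turned with equal panel totals (-0.09) and without myoblast sample 1 (-0.03), neither of which passed the test.

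Snora33, in Rps12 and in human a guide for large-subunit ribosomal RNA, stood at 15139, 12387 and 14298 normalized counts in myoblasts 1, 2 and 3. It stood at 11859, 11887 and 8641 in myotubes 1, 2 and 3. Myotube samples 1 and 2 were close to the lowest myoblast sample, and myotube sample 3 was well below all others. The groups did not overlap, as for 65.7% of all measured snoRNAs and, with myotubes lower, 23.9%. The means were 13941 ± 1410 and 10796 ± 1866 (SD, n = 3 each), 1.30-fold lower in myotubes. The log2 change was -0.38 ± 0.16 (SE) with a 95% interval from -0.77 to 0.01, and it missed the threshold (limma, adjusted p = 0.081).

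Whether Snora33 was called depended on how samples were scaled. Added up over the panel, normalized counts were 1.13 times as high in myotubes as in myoblasts (exact two-sided permutation p = 0.1, the lowest this design can give). Scaling to equal panel totals shifted the log2 changes of the panel by a median of -0.18, as did quantile normalization. Relative to that shifted panel Snora33 passed the test, with a log2 change of -0.55 (limma, adjusted p = 0.026) for equal totals and -0.56 (limma, adjusted p = 0.031) after quantile normalization. With equal totals 42 of the 67 snoRNAs passed, 20 of them lower in myotubes. After quantile normalization 37 passed, 17 of them lower. As a share of the panel, Snora33 made up 1.06%, 0.782% and 0.900% in myoblasts 1, 2 and 3, against 0.676%, 0.679% and 0.510% in myotubes 1, 2 and 3. These shares did not overlap either, but how many other snoRNAs did not overlap as shares was not counted. With sample medians subtracted Snora33 lay at the threshold, at -0.44 (limma, adjusted p = 0.0501). Without myotube sample 3 the log2 change on the deposited scale was -0.23 (limma, adjusted p = 0.17), a move of over 1.5 times. Leaving out myoblast sample 2 instead gave -0.46 (limma, adjusted p = 0.070).

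Snora64 and Snora78 did not pass under any of the alternatives run. With equal panel totals the log2 change of Snora64 was -0.46 (limma, adjusted p = 0.19). It dropped to -0.09 when myoblast sample 1 was left out (limma, adjusted p = 0.83) and to -0.06 when myotube sample 3 was (limma, adjusted p = 0.86), and was -0.48 when myoblast sample 2 was (limma, adjusted p = 0.14), so the size of this change rests on single samples. Snora78 made up 0.235% ± 0.0200 of the panel in myoblasts against 0.220% ± 0.0166 in myotubes (SD, n = 3 each). That of Snora64 was 0.298% ± 0.0943 and 0.214% ± 0.0504.

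**Figure D2:**
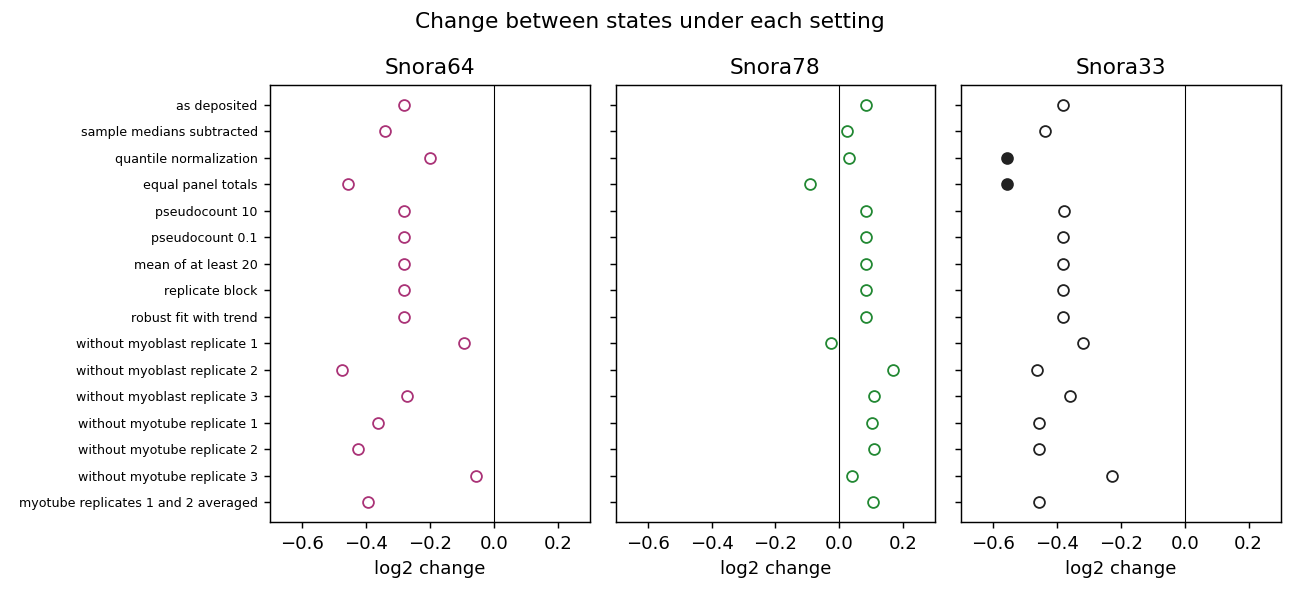
Log2 change between states (horizontal axis, myotube minus myoblast) of each snoRNA on the deposited scale and under the 15 alternatives, with filled points where the adjusted p was at or below 0.05. Snora33 stayed below 0 throughout, between -0.56 and -0.23, and passed with equal panel totals and quantile normalization.

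Samples of one state deviated in opposite ways for the neighbours Snora64 and Snora78. In myoblast sample 1 Snora64 was 0.56 above the mean of the other myoblast samples (log2), the 5th highest such difference of the 67 snoRNAs. Snora78 was 0.33 below it there, the 45th highest, and the panel median was 0.12 below. In myotube sample 3 Snora64 was 0.67 below the mean of the other myotube samples, while Snora78 was 0.13 above and the panel median 0.15 below. Measured against the mean of its own state, Snora64 was on the opposite side from Snora78 in 5 of 6 samples, the exception being myoblast sample 3, where they were 0.02 and 0.05 above the mean. Snora33 was on the same side as Snora64 in 6 of 6 samples, with smaller deviations in 5 of them. Although on another chromosome, Snora33 was also on the opposite side from Snora78 in 5 of 6 samples. It was 0.19 above its companions in myoblast sample 1 and 0.46 below them in myotube sample 3. The deviations of a snoRNA balance out within each state, so the 6 sides are not independent observations. How often other pairs of the panel fall on the same side was not counted.

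**Figure D3:**
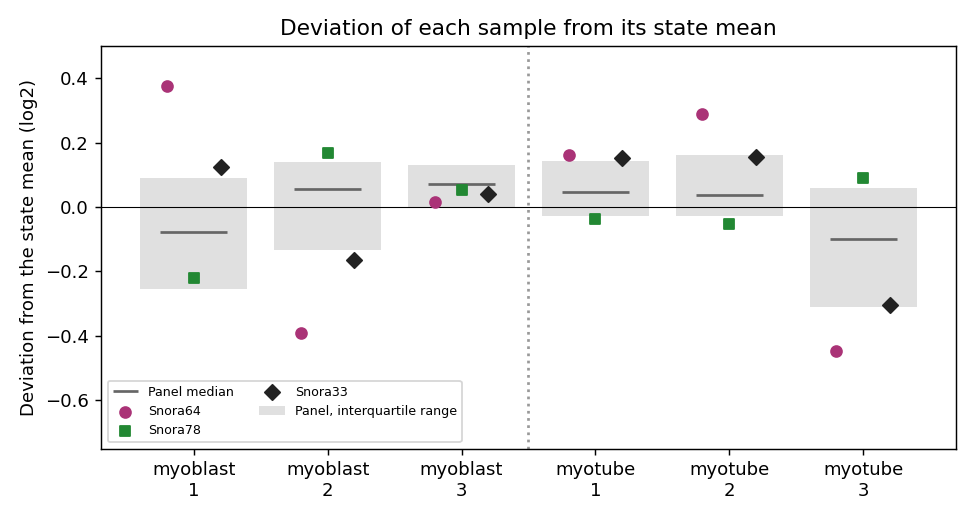
Deviation of each sample from the mean of its state (vertical axis, log2) for Snora64, Snora78 and Snora33, with the interquartile range of the 67 snoRNAs as grey bars and the panel median as a line. Snora64 and Snora33 lie on the same side of 0 in every sample, and Snora78 lies on the other side in 5 of 6.

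The libraries with the largest deviations of Snora64 did not share a depth. Myoblast sample 1 had the lowest implied panel total, 1097844 counts, against 1467770 to 1627062 in the other samples, and its factor per count was the highest at 1.31, against 1.01 to 1.11. Myotube sample 3 and myoblast sample 2, where Snora64 was furthest below its state mean (-0.45 and -0.39), did not stand apart in total, at 1583107 and 1570369 counts. Myotube samples 1 and 2 were the closest pair, with an SD over snoRNAs of 0.080 in their log2 difference, against 0.21 to 0.49 for the other pairs within a state. That pair still differed beyond sampling noise over the panel, with a chi-square per degree of freedom of 13.4, and was kept as separate samples. The part of depth or of single libraries in the deviations of Snora64 was not tested.

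The ratio of a pair within a sample does not depend on a factor per sample, but its level also reflects how well each probe hybridises, so only differences between samples are read. For Snora64 to Snora78 the log2 ratio was 0.89, -0.26 and 0.26 in myoblasts 1, 2 and 3, and 0.13, 0.27 and -0.61 in myotubes 1, 2 and 3. The states overlapped, the highest ratio being that of myoblast sample 1 and the lowest that of myotube sample 3. The mean went from 0.30 ± 0.58 to -0.07 ± 0.47 (SD, n = 3 each), a difference of -0.37 ± 0.43 (SE; exact two-sided permutation p = 0.5, adjusted over 3 pairs 0.7). The difference rested on single samples, at -0.07 without myoblast sample 1, -0.10 without myotube sample 3 and -0.64 without myoblast sample 2 (exact permutation p of 0.9, 0.8 and 0.3). After quantile normalization it was -0.23 (0.6). Within the myoblasts alone the ratio ran from -0.26 to 0.89, a wider span than the difference between the states.

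For Snora33 to Snora78 the log2 ratio was 2.29, 1.62 and 1.94 in myoblasts 1, 2 and 3, and 1.68, 1.69 and 1.09 in myotubes 1, 2 and 3. Myoblast sample 2 fell below myotube samples 1 and 2, so the states overlapped. The difference was -0.46 ± 0.28 (SE; exact two-sided permutation p = 0.3, adjusted over 3 pairs 0.7). It was -0.27 without myotube sample 3, -0.29 without myoblast sample 1 and -0.63 without myoblast sample 2 (exact permutation p of 0.4, 0.6 and 0.1). For Snora33 to Snora64, which lie in different ribosomal protein genes on different chromosomes, the log2 ratio was 1.40, 1.88 and 1.68 in myoblasts 1, 2 and 3, and 1.55, 1.42 and 1.70 in myotubes 1, 2 and 3. It had the narrowest range of the 3 pairs, and the states differed by -0.10 ± 0.16 (SE; exact two-sided permutation p = 0.7, adjusted over 3 pairs 0.7). Its sign turned to 0.01 without myoblast sample 2. The difference was -0.22 without myoblast sample 1 and -0.17 without myotube sample 3 (exact permutation p of 0.3 and 0.5), and nearer 0 without myotube sample 2, at -0.03 (0.9). Quantile normalization, which does not keep ratios within a sample, gave -0.36 (exact permutation p = 0.1, the smallest possible). The smallest p that this test allows is 0.1, so none of the 3 pairs could have passed the threshold.

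**Figure D4:**
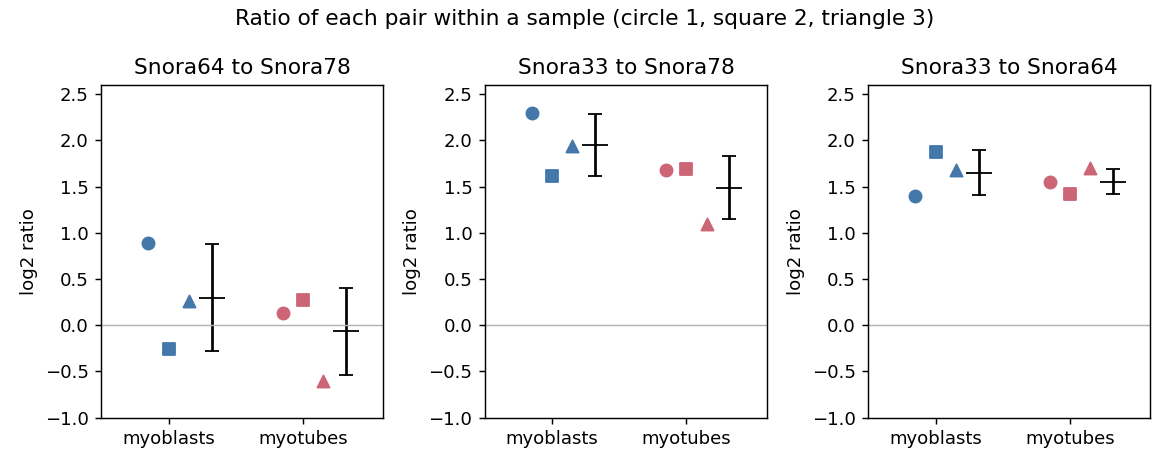
Log2 ratio within a sample (vertical axes) for each of the 3 pairs, with circle, square and triangle for samples 1, 2 and 3 of each state and the mean ± SD in black. Snora33 to Snora64 spans 1.40 to 1.88 over all samples, whereas Snora64 to Snora78 spans -0.61 to 0.89.

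The other snoRNAs on the panel that lie in ribosomal protein genes and have a symbol numbered 9. Of these 4 rose in myotubes, 1 fell and 4 did not pass, close to the panel's 35.8% higher and 19.4% lower. Their median log2 change was 0.39 against 0.14 over all 67 snoRNAs. With Snora64, Snora78 and Snora33 the list had 12 members, of which 7 did not pass, and a median of 0.18, which was 0.0026 with equal panel totals and 0.072 after quantile normalization. Snora78 is on this list only through the annotated span of Rps2. Snora3, in Rpl27a, and Snora70, in Rpl10, rose by log2 changes of 0.94 and 0.84 (limma, adjusted p of 0.0067 and 0.0037). Snora68 and Snora7a rose by 0.90 and 0.60 (limma, adjusted p of 0.00039 and 0.0021). Snora52, in Rplp2, fell by 0.67 on the log2 scale (limma, adjusted p = 0.0037). Snora62, in Rpsa, the other small-subunit protein host on the list, had a log2 change of -0.25 (limma, adjusted p = 0.19). Under 3 alternatives it passed, at -0.43 for equal panel totals, -0.42 for quantile normalization and -0.39 with myoblast sample 1 left out (limma, adjusted p of 0.015, 0.049 and 0.014). Snora65, Snora69 and Snora21 had log2 changes of -0.58, 0.39 and 0.27 (limma, adjusted p of 0.19, 0.20 and 0.12). Snora65 passed with sample medians subtracted, at -0.63 (limma, adjusted p = 0.0041), and in the fit blocked on replicate number, at -0.58 (limma, adjusted p = 0.024). Snora69 and Snora21 passed once myotube sample 3 was left out, at 0.67 and 0.39 (limma, adjusted p of 0.0087 and 0.014). Whether the snoRNAs of small-subunit protein genes differ from those of large-subunit protein genes was not tested.

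**Figure D5:**
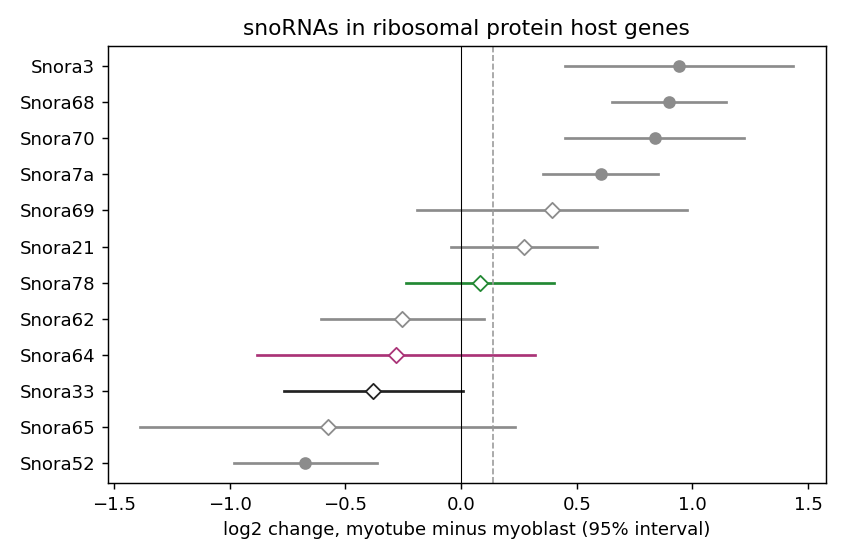
Log2 change between states with its 95% interval (horizontal axis) for the 12 measured snoRNAs within annotated spans of ribosomal protein genes. Filled circles mark an adjusted p at or below 0.05 and open diamonds the others. The dashed line is the median of all 67 snoRNAs, 0.14, and Snora64, Snora78 and Snora33 lie below it with intervals that reach 0.

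The snoRNAs whose samples deviated most like those of each of these 3 were found by the Pearson correlation of deviations from the state means over the 6 samples, among snoRNAs with a symbol. For Snora64 they were Snora65, Snora81 in the initiation factor gene Eif4a2, and Snora75 in the nucleolin gene Ncl, with coefficients of 0.99, 0.99 and 0.98. For Snora33 they were Snora69, Snora64 and Snora41, at 0.99, 0.95 and 0.94. For Snora78 they were Snora30, Snora26 and Snora52, at 0.98, 0.96 and 0.96, of which Snora30 rose and Snora52 fell between the states. Over log2 levels, states included, Snora64 was most like Snora81, Snora65 and Snora75 (0.98, 0.98 and 0.92) and Snora33 most like Snora75, Snora65 and Snora64 (0.96, 0.92 and 0.89). Snora78 was most like Snora26, Snora16a and Snora17 (0.96, 0.87 and 0.68). The coefficient of Snora64 with Snora78 was -0.89 for deviations and -0.90 for levels. That of Snora33 with Snora78 was -0.72 for deviations and -0.70 for levels. All snoRNAs share the same 6 libraries, and a few samples carry most of each coefficient, so these values describe likeness only.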

How the data were processed

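The deposited table, used as the authors gave it, held a normalized signal for 72 probes in 6 samples. Every value in a column was a whole multiple of 1 step (tolerance 0.05 of a count), so the signal was read as a probe count times a factor for that sample. What set the factor, and whether a background was subtracted, is not stated in the labels or the table, which held no control probes. Implied totals, from values over steps, were 1097844 to 1627062 counts, and errors from them cover counting only.

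Probes were named by RefSeq accession, without versions, through an annotation of GRCm38.p6, which gave symbols for 33 of 67 measured probes. Hosts are genes whose annotated span holds the snoRNA. No label names the genome build behind the probes.

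A pseudocount of 1 was added before taking log2, and fold changes are those of the log2(value + 1) scale. The fit was made over all 67 snoRNAs with limma 3.58.1 (R 4.3.3), using lmFit and eBayes with the cell state as sole covariate, two-sided tests, Benjamini-Hochberg adjustment and a threshold of 0.05. Ratios were compared by exact two-sided permutation of the sample labels. Python 3.11.15, numpy 2.4.6, pandas 2.3.3 and scipy 1.17.1 were used. The fit was tested on 50 simulated panels of 67 probes made for this comparison, with 30 probes changed in each. It recovered 55.6% of 1.41-fold changes, 92.6% of 2-fold and 99.2% of 4-fold changes. The simulated probes varied independently, with spreads drawn from the fit over the whole panel, whereas some measured snoRNAs deviated alike. These rates are therefore not the power for Snora33, Snora64 or Snora78.

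Alternatives covered the scaling, pseudocount, low-value filter, replicate block, variance model and leaving out or averaging samples. The rule for the members used position and no values, but the members, lists, named snoRNAs and alternatives were chosen with earlier results of these data known. Named were the 3 members, the other 9 snoRNAs in ribosomal protein hosts, and for each member the 3 most alike snoRNAs by each likeness measure.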

Additional observations from a re-analysis of the deposited data

How the results depend on the processing

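The number of snoRNAs called over the panel was 37 on the deposited scale and between 29 and 42 under the 15 alternatives, with 22 higher and 20 lower for equal panel totals and 20 higher and 17 lower after quantile normalization, against 24 and 13. Snora33 kept its direction in all 15 and passed with equal panel totals (-0.55) and quantile normalization (-0.56), which move the panel median down. Leaving out 1 sample gave log2 changes of -0.46 to -0.23 for Snora33, -0.48 to -0.058 for Snora64 and -0.027 to 0.168 for Snora78. The sign of Snora78 turned with equal panel totals (-0.092), and without myoblast sample 1 (-0.027). The ratio of Snora33 to Snora64 turned without myoblast sample 2, and ran from -0.223 to 0.015 when 1 sample was left out. Among the other named snoRNAs, signs turned for Snora16a after quantile normalization (-0.0057), for Snora26 after quantile normalization (-0.042), with equal panel totals (-0.080) and without myoblast sample 1 (-0.018 to 0.157 when 1 sample was left out), and for Snora81 without myoblast sample 1 or myotube sample 3 (-0.539 to 0.020 when 1 sample was left out), none of which passed a test. The median of the 12 snoRNAs in ribosomal protein hosts was between 0.13 and 0.22 when 1 sample was left out and was 0.12 with sample medians subtracted, 0.072 after quantile normalization and 0.0026 with equal panel totals. Same-numbered samples had correlations of deviations of 0.44, -0.74 and -0.02. With so few samples per state, these values cannot show whether same-numbered samples were paired, and no label names a pairing. With the replicate number as a block, the changes of Snora33, Snora64 and Snora78 were -0.38, -0.28 and 0.08 (limma, adjusted p of 0.14, 0.29 and 0.78), and 38 snoRNAs were called. Among the other named snoRNAs the block added the calls of Snora65 and Snora75 (-0.58 and -0.79, adjusted p of 0.024 and 0.0017) and ended that of Snora17 (0.45, adjusted p = 0.080). Pseudocounts of 10 and 0.1, the filter on means under 20, which removed no snoRNA, the robust fit with trend, and averaging myotube samples 1 and 2 ended or added no call among these 3. Why the calls differ between scalings was not tested.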
